A study of Mus musculus with 4 samples.

Results

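The proteasome genes examined here are those whose symbols carry the proteasome stem for the 20S core (*Psma*, *Psmb*), the 19S regulator (*Psmc*, *Psmd*), the activators (*Psme*), the inhibitor (*Psmf1*) and the assembly chaperones (*Psmg*). The name pattern found 50 of the 24369 genes listed, and 49 of them reached an expected count of 10 in at least 2 libraries. One of the 49, *Psmc3ip*, shares the stem but encodes a meiotic recombination factor, so the values below are for the other 48 genes. The gene that fell short was *Psma8*, a testis-restricted core subunit, with 6 and 14 counts in the EV RV pair against 5 and 4 in the Tox RV pair.

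RNA-seq was carried out on CD4 T cells from the spleens of wild-type C57BL/6 mice, with 2 libraries from cells transduced with the empty GFP retrovirus (EV RV) and 2 from cells transduced with the same vector encoding Tox (Tox RV). Naïve cells of both groups were activated without polarizing cytokines (anti-CD3, anti-CD28 and IL-2), transduced on day 2, restimulated through CD3 on day 5 and sorted for GFP, which marks transduced cells in either group. The ages of the mice were not given in the sources used here, and the cells measured were sorted cultures in which Tox came from the viral promoter. The 2 libraries of a group stand for 2 individual mice, and no label says whether both groups used the same mice.

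The proteasome degrades proteins tagged with ubiquitin. Its 20S core is a barrel of alpha and beta rings whose catalytic beta subunits cut the chain, and the 19S regulator binds ubiquitin, unfolds the substrate and feeds it in. Interferon gamma induces a second set of catalytic subunits, *Psmb8*, *Psmb9* and *Psmb10*, which replace *Psmb5*, *Psmb6* and *Psmb7* in newly built cores to form the immunoproteasome, and it also induces the PA28 activator made of *Psme1* and *Psme2*. Lymphocytes express this immunoproteasome constitutively, and its products feed antigen presentation by MHC class I.

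Sequence upstream of the starts is shown for a constitutive catalytic subunit (*Psmb5*), for the inducible subunit that takes its place (*Psmb8*), and for the 19S ATPase that was lowest in EV RV replicate 1 relative to replicate 2 (*Psmc6*). The sequences are from RefSeq on GRCm38.p6, the assembly also called mm10, and cover the 250 bases before the RefSeq start. They lie at chr14:54617996-54618245 (minus strand), chr17:34197945-34198194 (plus strand) and chr14:45329574-45329823 (plus strand). GENCODE M21 sets these starts further upstream. The *Psmb8* stretch, with its marked site, therefore lies inside the GENCODE span of the gene (34197721 to 34201454). The other stretches overlap theirs in part. Capitals mark TGANNNNGC in *Psmb5*, TTCNNNGAA in *Psmb8* and CCGGAAG in *Psmc6*. TGANNNNGC is a loose form of the core of the antioxidant response element, which the proteasome factor Nrf1 reads. TTCNNNGAA is the interferon gamma activated site, and CCGGAAG is the core of ETS sites.
*Psmb5*: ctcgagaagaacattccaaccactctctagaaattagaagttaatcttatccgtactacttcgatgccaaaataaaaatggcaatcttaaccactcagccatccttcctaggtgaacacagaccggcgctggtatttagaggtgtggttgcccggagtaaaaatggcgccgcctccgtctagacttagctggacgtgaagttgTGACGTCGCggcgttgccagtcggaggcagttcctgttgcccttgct
*Psmb8*: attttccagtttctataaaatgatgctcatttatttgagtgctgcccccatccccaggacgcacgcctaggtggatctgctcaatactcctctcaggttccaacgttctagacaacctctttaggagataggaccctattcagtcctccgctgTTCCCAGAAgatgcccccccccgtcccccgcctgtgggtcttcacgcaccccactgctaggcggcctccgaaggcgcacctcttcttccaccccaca
*Psmc6*: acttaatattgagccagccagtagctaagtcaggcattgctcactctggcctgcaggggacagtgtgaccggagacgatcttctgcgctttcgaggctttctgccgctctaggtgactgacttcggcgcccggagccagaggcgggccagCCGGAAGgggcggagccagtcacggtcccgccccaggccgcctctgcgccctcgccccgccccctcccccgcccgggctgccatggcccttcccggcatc
Letters were searched on both strands of the 300-base windows that the RefSeq table holds for 44 starts of 41 of these genes, 50 of those bases lying after the start. Matches to different motifs were counted separately and may overlap. CCGGAAG was found in 15 of the 44 windows (34.1%) and in 8.86% of all 32851 windows. TGANNNNGC was found in 25 (56.8%, against 41.3% of all windows), CCAAT in 14 (31.8%, against 37.4%), the interferon-stimulated response element (GAAA, any 2 bases, GAAA) in 5 (11.4%, against 3.44%), and TTCNNNGAA in 3 (6.82%, against 8.30%). Of the genes of the inducible set that had a window, *Psmb8* alone held TTCNNNGAA. *Psme1* alone of these held the interferon-stimulated element, past its start. These letter matches are a description of the windows, not evidence of binding.

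The 4 libraries held 46989997 to 74548723 expected counts. Where 4 values are given below without names, they are those of EV RV replicate 1, EV RV replicate 2, Tox RV replicate 1 and Tox RV replicate 2, in that order. *Tox* was at 7.22 and 3.37 TPM in the EV RV pair against 69.1 and 56.9 TPM in the Tox RV pair, so all 4 libraries lay on the side of their labels. Its log2 fold change of 3.68 did not pass in edgeR across all genes (adjusted p = 0.490), while DESeq2 gave an adjusted p of 3.79e-24. TPM is the transcript level per length, scaled to the same total in each library. Summed over 7 defining T cell genes (*Cd3e*, *Cd4* and others), the level was 1801 to 2404 TPM, while 2 CD8 genes summed to at most 4.98 TPM, 4 B cell genes to at most 2.28 TPM and 7 myeloid and dendritic cell genes to at most 7.14 TPM. EV RV replicate 1 stood apart from the other libraries on the first principal component (-53.8, against 5.70 to 25.8), and 24.7% of its counts fell on the 45S pre-ribosomal RNA, against 7.14% to 11.97% in the others. Each comparison below was therefore also made without that library.

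Across the 48 genes no difference between Tox RV and EV RV cells passed an adjusted p of 0.05 by edgeR (quasi-likelihood), and the adjusted p-values ran from 0.897 to 0.975. Over all 14143 genes tested, 0 (0%) passed that threshold. At an unadjusted p below 0.05 there were 0 of the 48 genes, against 3.62% of all genes (1.07% higher and 2.55% lower in Tox RV cells), and the lowest unadjusted p was 0.0985. DESeq2, the tool named in the methods, called 0 of the 48 at an adjusted p of 0.05 (0.121% of all genes with an adjusted p) and found 1 at an unadjusted p below 0.05, against 4.21% of all genes tested. The log2 fold changes had a median of 0.15 over the 48 genes and 0.00 over all genes tested. They were above 0 for 41 of the 48 genes, against 50.4% of all genes, and below 0 for 7. The 95% interval of the log2 fold change lay within 1 of 0, a 2-fold change, for 43 of the 48. The upper bound passed it for 3 (*Psma3*, *Psma4* and *Psmc6*) and the lower bound for 2 (*Psmb11* and *Psme2b*). In bulk samples, fewer cells of a type and less RNA per cell cannot be told apart.

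**Figure D1:**
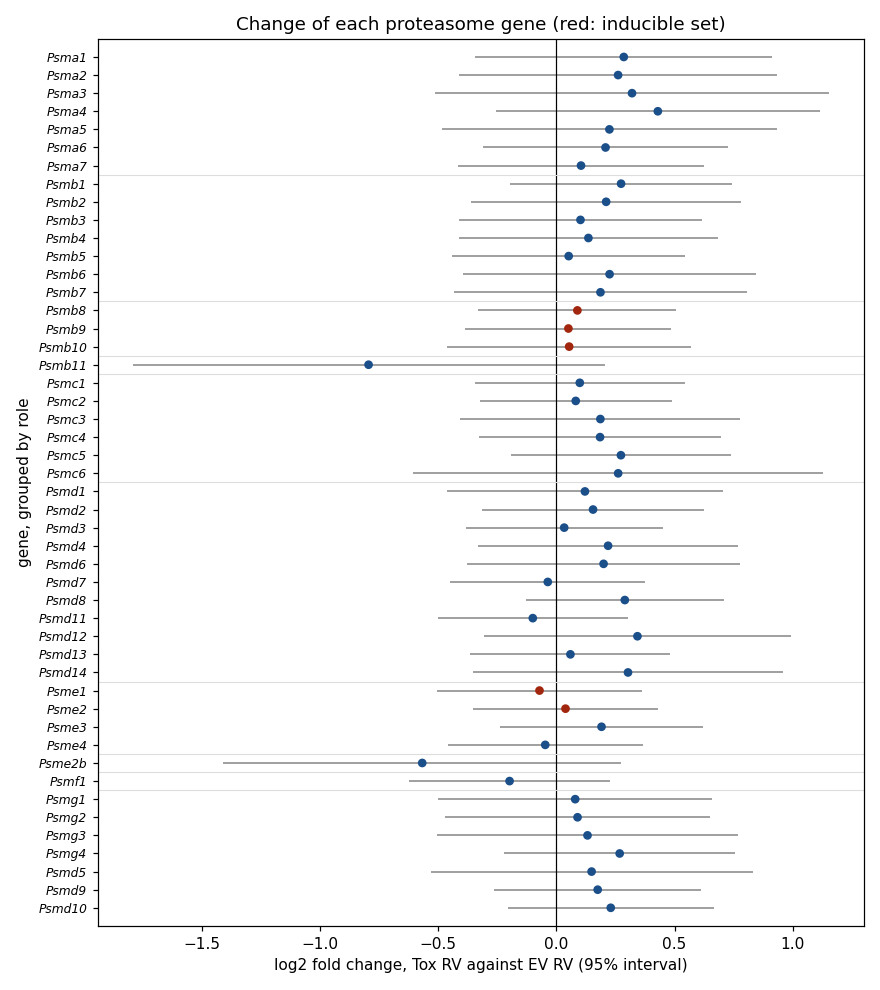
Log2 fold change of each of the 48 proteasome genes, Tox RV against EV RV (horizontal axis), with its 95% interval from edgeR's quasi-likelihood fit (grey lines, 2 libraries per group), and genes grouped by role from the core at the top to the assembly chaperones at the bottom. Every interval crosses 0, 41 of the 48 points lie to the right of it, and the 5 inducible genes (red) lie between -0.07 and 0.09.

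The inducible subunit *Psmb8* and the PA28 pair *Psme1* and *Psme2* were the most abundant transcripts of the 48. By mean TPM over the 4 libraries *Psmb8* ranked 189 of the 24369 genes, *Psme1* 193 and *Psme2* 199, ahead of the first constitutive subunit, *Psma7*, at 254. In all, 28 of the 48 genes were among the 1000 highest and 31 averaged 100 TPM or more.

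*Psmb8*, the inducible chymotrypsin-like subunit, is at 34197721 to 34201454 of chromosome 17 (mm10, plus strand), between *Tap1* and *Tap2*, which encode the peptide transporter. Its level was 509 and 561 TPM in the EV RV pair against 523 and 553 TPM in the Tox RV pair. The groups overlapped, with means of 535 ± 36.4 TPM in EV RV and 538 ± 20.9 TPM in Tox RV cells (SD, n = 2 each). The log2 fold change was 0.09 (standard error, SE, 0.17, 95% interval -0.33 to 0.51, adjusted p = 0.931 by edgeR).

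*Psmb9*, the inducible subunit at the caspase-like site, lies on the other side of *Tap1*, at 34181987 to 34187764 of chromosome 17 (minus strand), and overlaps the start of *Tap1* on the other strand by 212 bases, so reads there could be given to either gene unless strand was used. It was at 231 and 266 TPM in the EV RV pair against 239.5 and 247 TPM in the Tox RV pair. Both Tox RV values lay between the EV RV values, and the log2 fold change was 0.05 (95% interval -0.39 to 0.49).

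*Psmb10*, the inducible trypsin-like subunit, on chromosome 8 from 105935735 to 105938444, was at 248.6 and 182 TPM in the EV RV pair against 231 and 189 TPM in the Tox RV pair. Here EV RV replicate 1 was the highest library by TPM, and the groups again overlapped (log2 fold change 0.05, 95% interval -0.46 to 0.57). The standard error, 0.21, was the largest of the inducible set.

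*Psme1* and *Psme2*, which encode the alpha and beta subunits of PA28, lie close together on chromosome 14, from 55578123 to 55581529 and from 55587441 to 55591113. *Psme1* was at 618 and 497.5 TPM in the EV RV pair against 523 and 476 TPM in the Tox RV pair, with EV RV replicate 1 the highest. *Psme2* was at 534, 503.5, 519 and 487 TPM in the same order and varied little between libraries. The log2 fold changes were -0.07 (95% interval -0.51 to 0.36) and 0.04 (95% interval -0.35 to 0.43), both smaller than their standard errors of 0.18 and 0.16. The transcripts of the 2 subunits were nearly equal in number, with a *Psme1* to *Psme2* ratio of 1.16 and 0.988 with EV RV against 1.01 and 0.979 with Tox RV.

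*Psme2b*, on chromosome 11 from 48945354 to 48946190, is 99.4% identical to *Psme2* over 794 bases, so the division of reads between them by RSEM is uncertain. It was listed at 56.6 TPM in EV RV replicate 1 and at 26.7, 26.3 and 26.2 TPM in EV RV replicate 2 and Tox RV replicates 1 and 2. Its share of the summed TPM of both genes was 9.58% in EV RV replicate 1 and 4.81% to 5.10% in the others. EV RV replicate 1 thus stood apart from the other 3, and the log2 fold change of -0.57 (SE 0.34) became 0.01 without it.

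The balance of inducible to constitutive catalytic subunits was read as the ratio of their TPM. *Psmb5*, the constitutive chymotrypsin-like subunit, was at 148 and 183 TPM in the EV RV pair against 153 and 172 TPM in the Tox RV pair, so *Psmb8* exceeded it by 3.44 and 3.06 times with EV RV and by 3.41 and 3.22 times in Tox RV cells. *Psmb6*, the constitutive caspase-like subunit, was at 177, 263, 229 and 259 TPM, and the ratio of *Psmb9* to it was 1.31 and 1.01 with EV RV against 1.05 and 0.956 with Tox RV. *Psmb7*, the constitutive trypsin-like subunit, was at 169, 253, 219.7 and 236 TPM, and the ratio of *Psmb10* to it was 1.48 and 0.719 with EV RV against 1.05 and 0.802 with Tox RV. In each of the 3 pairs the ratio was highest in EV RV replicate 1, and the pair for the chymotrypsin-like site stood well above the others in all 4 libraries.

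The 3 ratios did not separate the groups. The difference of the mean log2 ratio, Tox RV minus EV RV, was 0.03 for *Psmb8* to *Psmb5*, -0.20 for *Psmb9* to *Psmb6* and -0.16 for *Psmb10* to *Psmb7*, with exact two-sided permutation p-values of 1.00, 0.667 and 1.00 (n = 2 libraries per group, where 0.333 is the smallest p possible), and 1.00 for each after Benjamini-Hochberg adjustment over the 3 pairs. The summed TPM of the 3 inducible subunits was 989 and 1008 with EV RV against 994 and 989 with Tox RV, while that of the 3 constitutive subunits was 493 and 699 with EV RV against 602 and 666 with Tox RV. The inducible share of that total was 66.7% in EV RV replicate 1 and 59.0% to 62.3% in the other 3 libraries. The inducible sum differed little between the EV RV libraries while its members went opposite ways, *Psmb10* being higher and *Psmb8* and *Psmb9* lower in replicate 1, whereas all 3 constitutive subunits were lower there.

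**Figure D2:**
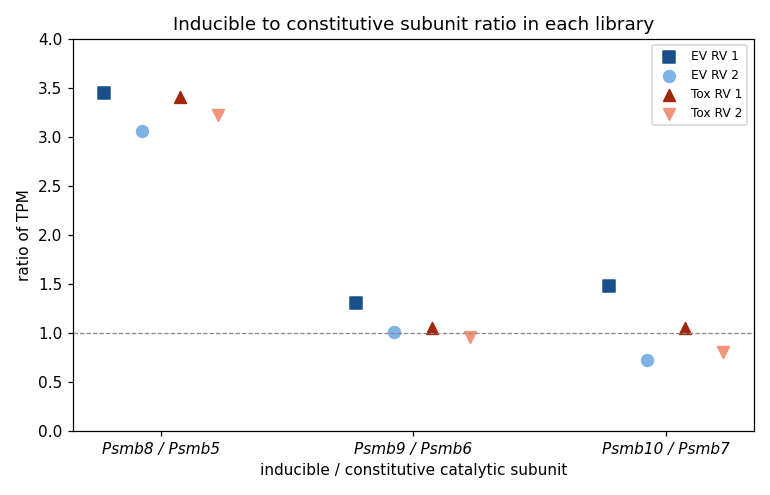
Ratio of TPM of each inducible catalytic subunit to the constitutive subunit whose place it takes (vertical axis), in each of the 4 libraries (points, 1 per library). The *Psmb8* to *Psmb5* ratios lie between 3.06 and 3.44, the other pairs lie around 1 (dashed line), and EV RV replicate 1 is highest in each pair.

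The 14 constitutive core subunits shared a low value in 1 of the EV RV libraries. All 14 were lowest in EV RV replicate 1 by normalized CPM (counts scaled to a common depth by edgeR's TMM), an arrangement found in 37.0% of all genes. All 14 log2 fold changes were above 0, but the Tox RV pair lay above the EV RV pair for 2 of the 14 (14.3%), against 18.6% of all genes. Of the alpha ring genes, *Psma4* had the largest difference and was at 184 and 301 TPM with EV RV against 307 and 315 TPM with Tox RV. EV RV replicate 1 lay below the other 3 libraries, which were close together (log2 fold change 0.43, SE 0.28, 95% interval -0.26 to 1.12). *Psma7*, the most abundant alpha gene at 333, 444, 389 and 405 TPM, had the smallest difference of its ring (log2 fold change 0.10). *Psma5* was the least abundant, at 117, 194, 161 and 185 TPM. The 7 alpha transcripts of a library spanned a 2.83-fold range in EV RV replicate 1 and 2.19-fold to 2.41-fold in the others, although the ring holds each subunit once.

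The constitutive beta genes shared the low value in EV RV replicate 1, with smaller differences. *Psmb1*, a structural beta subunit, was at 251 and 308 TPM with EV RV against 321 and 319.6 TPM with Tox RV, and it was the other core gene in which both Tox RV libraries were the higher ones (log2 fold change 0.27, SE 0.19). *Psmb4*, the most abundant beta gene of this group, was at 291, 391, 331 and 379 TPM, with EV RV replicate 2 the highest. *Psmb5* had the smallest difference (log2 fold change 0.05, 95% interval -0.44 to 0.55). Without EV RV replicate 1, the 14 core genes had a median log2 fold change of -0.09, against 0.22 with all libraries, and it was 0.55 when EV RV replicate 2 was left out.

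The thymus-specific core subunit *Psmb11*, on chromosome 14 from 54621433 to 54629556 beside *Psmb5*, was near the bottom of the set. It was listed at 4.45 and 1.88 TPM in the EV RV pair against 1.68 and 1.71 TPM in the Tox RV pair. The Tox RV pair lay below the EV RV pair, but 3 libraries were close together and EV RV replicate 1 was the high one. The log2 fold change of -0.80 (SE 0.40, 95% interval -1.79 to 0.20) was the lowest of the 48 and moved to -0.11 without that library. *Psmb11* was also the gene at an unadjusted p below 0.05 in DESeq2, with an adjusted p of 1.00 there.

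**Figure D3:**
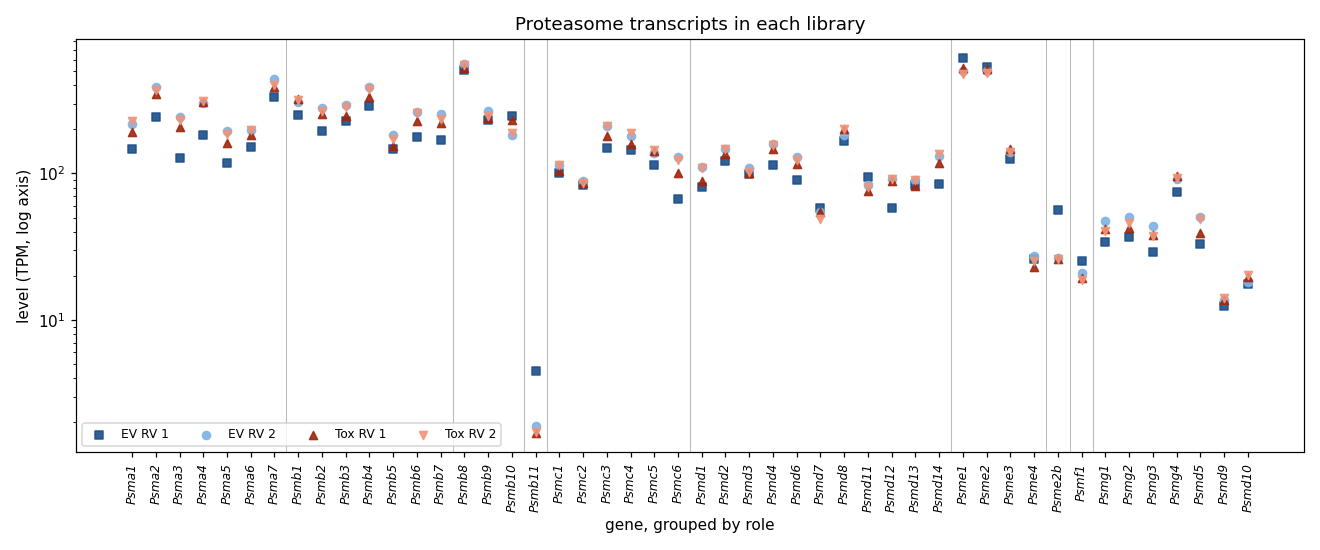
Level of each proteasome gene in TPM (vertical log axis) in each of the 4 libraries (points, 1 per library), with genes grouped by role. EV RV replicate 1 (dark squares) lies below the other libraries for all 14 constitutive core genes, and above them for 8 of the 48 genes (*Psmb10*, *Psmb11*, *Psmd7*, *Psmd11*, *Psme1*, *Psme2*, *Psme2b* and *Psmf1*).

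The 19S regulator showed the same arrangement. Its 6 ATPases, which form the ring that unfolds substrates, were all lowest in EV RV replicate 1 by normalized CPM. *Psmc5* had the largest difference, at 114 and 137 TPM with EV RV against 142 and 146 TPM with Tox RV, with both Tox RV libraries higher (log2 fold change 0.27, SE 0.19). *Psmc2* had both the smallest difference and the lowest level, at 83.2, 88.6, 85.8 and 86.2 TPM (log2 fold change 0.08). *Psmc3*, the most abundant, was at 149, 211, 179 and 209.9 TPM. *Psmc6*, singled out after its values were seen, was at 66.5, 130.1, 101.5 and 123 TPM, and its log2 ratio of EV RV replicate 1 to replicate 2, -1.04, was the lowest of the 48 genes.

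Of the 11 non-ATPase subunits, which hold the lid together, bind ubiquitin or remove it, 9 were lowest in EV RV replicate 1. *Psmd12*, a lid subunit, had the largest difference, at 58.5 and 91.7 TPM with EV RV against 89.5 and 91.5 TPM with Tox RV (log2 fold change 0.34, SE 0.26). *Psmd8*, another lid subunit and the most abundant, was at 166 and 184 TPM with EV RV against 201 and 203 TPM with Tox RV. The Tox RV pair of *Psmd8* lay above the EV RV pair, and its log2 fold change was 0.29 (SE 0.17, 95% interval -0.13 to 0.71) with all libraries and 0.18 without EV RV replicate 1. *Psmd11*, also of the lid, was the lowest of this group by fold change (-0.10), at 94.9, 82.9, 76.0 and 80.4 TPM. *A730017L22Rik* is 97.9% identical to it in reverse orientation over 1501 bases, so its counts are uncertain. *Psmd7*, the least abundant, was at 58.1, 54.6, 54.6 and 49.0 TPM, and the groups overlapped.

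Averaged over its 17 genes, the 19S level was 101 and 127 TPM in the EV RV pair against 116 and 127 TPM in the Tox RV pair. The mean alpha ring level was 186 and 284 TPM with EV RV against 256 and 277 TPM with Tox RV. The alpha ring mean therefore exceeded the regulator mean by 1.85 times in EV RV replicate 1 and by 2.18 to 2.25 times in the other 3 libraries.

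None of the remaining activators nor the inhibitor passed the test. *Psme3*, the nuclear PA28 gamma, was at 125 and 141 TPM with EV RV against 146 and 141 TPM with Tox RV (log2 fold change 0.19, SE 0.17). *Psme4*, which encodes PA200, was at 25.9, 27.2, 23.1 and 25.4 TPM (log2 fold change -0.05). *Psmf1*, the inhibitor PI31, was at 25.4 and 20.99 TPM with EV RV against 19.3 and 18.8 TPM with Tox RV, so the Tox RV pair lay below the EV RV pair. Its log2 fold change was -0.20 (SE 0.17, adjusted p = 0.897 by edgeR), about the size of its error. *Psmf1* and *Psmb11* were the 2 of the 48 genes in this order, against 17.4% of all genes.

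The 7 assembly chaperones, which build the core and the base but are not part of the finished particle, were all lowest in EV RV replicate 1. *Psmg4* was the most abundant and had the largest difference, at 75.3 and 92.3 TPM with EV RV against 96.4 and 93.0 TPM with Tox RV (log2 fold change 0.27, SE 0.20). *Psmg1* had the smallest difference, at 33.9, 47.7, 41.5 and 40.4 TPM (log2 fold change 0.08). *Psmd9*, the least abundant, was at 12.5, 13.6, 13.7 and 14.1 TPM. The Tox RV pair lay above the EV RV pair for 3 of the 7 (*Psmg4*, *Psmd9* and *Psmd10*) and for 9 of the 48 genes in all by normalized CPM, or 18.8%, against 18.6% of all genes.

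Over the 48 genes, EV RV replicate 1 was the lowest library for 39 (81.2%, against 37.0% of all genes) and the highest for 5 (also 37.0% of all genes). The median log2 ratio of EV RV replicate 1 to replicate 2 was -0.39 over the 48 genes and 0.01 over all genes tested, while the ratio of Tox RV replicate 1 to replicate 2 had medians of -0.08 and 0.00. By group this EV RV ratio was -0.76 for the alpha genes, -0.50 for the constitutive beta genes, -0.37 for the ATPases, -0.35 for the non-ATPases, -0.52 for the assembly chaperones, -0.21 for the inducible beta genes and -0.08 for the activators. In all, 41 of the 48 genes were lower in EV RV replicate 1 than in replicate 2. The exceptions included *Psmb11*, *Psmd11* and *Psmd7* as well as *Psmb10* (0.38) and *Psme1* (0.24) of the inducible set. Without the 45S pre-ribosomal RNA counts, the median Tox RV to EV RV log2 fold change of the 48 was 0.14, against 0.15 with them. In that fit 0 of the 48 genes passed an adjusted p of 0.05 by edgeR. The part that these reads play in the difference between the EV RV replicates was not tested.

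**Figure D4:**
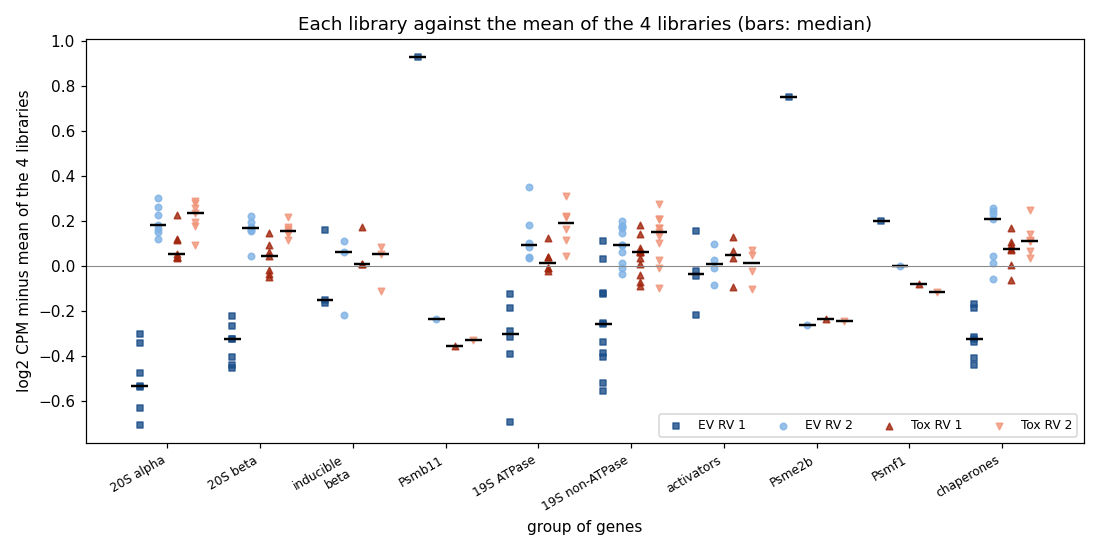
Normalized log2 CPM of each gene in each library minus its mean over the 4 libraries (vertical axis), by group of genes, with a point per gene and library and bars at the medians. The alpha genes have a median of -0.54 in EV RV replicate 1 against 0.05 to 0.24 in the other libraries, whereas the medians of the activators lie between -0.04 and 0.05 in all 4.

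Leaving out EV RV replicate 1 turned the direction of the median. Without it 13 of the 48 log2 fold changes were above 0, against 50.5% of all genes, and their median was -0.04, with single genes between -0.18 (*Psmg1*) and 0.25 (*Psmb10*), and 0 passed an adjusted p of 0.05 by edgeR (0.00685% of all genes). Without EV RV replicate 2, which leaves the deviating library as the only control and takes the spread from the Tox RV pair alone, the median was 0.40, 41 of the 48 log2 fold changes were above 0 (51.4% of all genes) and 5 of the 48 genes passed an adjusted p of 0.05 by edgeR, against 4.16% of all genes. These were *Psma3*, *Psma4* and *Psmd12*, which were higher (1.19% of all genes), and *Psmb11* and *Psme2b*, which were lower (2.98%), with adjusted p-values of 0.0384 to 0.0469.

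Of 56 other genes of the pathway, 55 were tested and 0 passed an adjusted p of 0.05 in either direction (0% of all genes), with a median log2 fold change of 0.01. *Pomp*, the chaperone of core maturation, behaved like the core genes, at 196 and 294 TPM with EV RV against 282 and 294 TPM with Tox RV (log2 fold change 0.31, SE 0.25). *Adrm1*, a ubiquitin receptor of the regulator, was at 95.5, 107.9, 93.5 and 93.8 TPM. *Nfe2l1*, which encodes the factor Nrf1 that induces proteasome genes, was at 37.9, 42.7, 41.6 and 33.7 TPM (log2 fold change -0.01). Neither differed beyond its replicate error.

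The 9 genes of interferon control were mostly on the lower side in Tox RV cells, with 7 of 9 log2 fold changes below 0, a median of -0.25 and the Tox RV pair below the EV RV pair for 5 of 9 (17.4% of all genes). Of these, 3 had an unadjusted p below 0.05 by edgeR, all with lower levels in Tox RV cells (2.55% of all genes). DESeq2 found 2 of the 9 at an unadjusted p below 0.05 (4.21% of all genes in either direction). None of the 9 passed the adjusted threshold. Under library totals, which moved the median of all genes to 0.12, the median of the 9 was -0.11 with 0 at an unadjusted p below 0.05 by edgeR. With single libraries left out, the median of the 9 was -0.20 without EV RV replicate 1 and -0.49 without EV RV replicate 2. It was -0.34 without Tox RV replicate 1 and -0.19 without Tox RV replicate 2. *Ifngr2*, a chain of the interferon gamma receptor, was at 22.9 and 22.9 TPM with EV RV against 13.8 and 16.0 TPM with Tox RV (log2 fold change -0.54, SE 0.18, adjusted p = 0.897 by edgeR). *Ifngr1*, the other chain, was at 288, 164, 137 and 128 TPM, with EV RV replicate 1 far above the rest. *Irf8*, an interferon-inducible factor, was at 190.4 and 201 TPM with EV RV against 134 and 135 TPM with Tox RV, so that replicates were close and the groups apart (log2 fold change -0.46, SE 0.16). *Irf1*, an interferon-induced activator, was between 263 and 329.9 TPM. The gene of interferon gamma itself, *Ifng*, ranged from 17.2 TPM in EV RV replicate 1 to 160.0 TPM in EV RV replicate 2.

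Beside the inducible subunits in the MHC region, *Tap1* was at 317 and 294 TPM with EV RV against 226 and 240.0 TPM with Tox RV, with a log2 fold change of -0.30 (SE 0.16, adjusted p = 0.897 by edgeR). The Tox RV pair of *Tap1* lay below the EV RV pair, an order found in 17.4% of all genes. For *Psmb8* and *Psmb9*, on either side of it, the groups overlapped. *Tap2* was at 209, 184, 186 and 171 TPM (log2 fold change -0.06). The difference between *Tap1* and its neighbours was not tested.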

How the data were processed

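Per the labels and methods, the authors aligned reads to mm10 transcripts and quantified them with RSEM, 1 library per file, without pooling. The methods name bowtie1 as the aligner, while the labels list Bowtie2 as well as Bowtie. Use of strand is not stated. The deposited expected counts are RSEM estimates of fragments per gene, not normalized. The deposited TPM and FPKM are RSEM's levels per transcript length, and FPKM served 1 alternative. A further table of the series was not used here.

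Rounded counts went into edgeR 4.0.16 under R 4.3.3 (filterByExpr with minimum count 10, TMM, quasi-likelihood test, Benjamini-Hochberg adjustment over 14143 genes, no block). DESeq2 1.42.0 and limma 3.58.1 were alternatives. The proteasome genes and all lists were chosen with earlier results of these data known. Named genes were the inducible set and its counterparts, the largest and smallest differences and the highest and lowest levels of each group, genes at an unadjusted p below 0.05 and 7 pathway genes, 1 of which is not reported here; others are marked, or spell out a count or a called difference. The smallest count of a tested proteasome gene in a library was 237, and the replicate spread exceeds counting error. Positions are from GENCODE M21 (GRCm38), and near copies were sought with blastn (at least 90% identity over 200 bases). In simulated counts for this comparison (14143 genes), edgeR recovered 41% of 100 genes changed 2-fold and 97% of 100 changed 4-fold. It made 20 false calls there, and it did not call *Tox* itself in the real libraries. How many genes changed that much would be recovered in the real libraries, where EV RV replicate 1 stood apart, was not tested.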

Additional observations from a re-analysis of the deposited data

How the results depend on the processing

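Neither DESeq2 (22 genes called among all genes), the fit with no filter on low counts (22) nor the fit with the replicate number as a block (16) called a proteasome gene, and DESeq2 and the block called no pathway gene. The deviations of the libraries numbered 1 correlated at 0.30, but with 2 pairs a shared number is not known to mark a shared mouse, and the block changed no call on the 48 genes. With each library left out, the calls ranged from 1 to 600 among all genes, from 0 to 5 among the 48 and from 0 to 4 among the pathway genes, each highest without EV RV replicate 2. In these fits the lone library of a group is assumed to vary like the other group. The proteasome median of 0.15 ranged from -0.041 without EV RV replicate 1 to 0.40 without EV RV replicate 2. Scaling by library totals moved the median of all genes by 0.12, and the median of the 48 to 0.26 with it.

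The small differences of the inducible set changed sign in several fits, and the cause was not tested. With limma on log2(TPM + 1) and log2(TPM + 0.1), *Psmb9* came to -0.026, *Psmb10* to -0.024 and *Psme2* to -0.044, and with library totals *Psme1* came to 0.057. With each library left out, *Psmb8* ranged from -0.021 to 0.20, *Psmb9* from -0.086 to 0.20, *Psmb10* from -0.12 to 0.25, *Psme1* from -0.18 to 0.046 and *Psme2* from -0.013 to 0.086. The log2 difference of the *Psmb8* to *Psmb5* ratio ranged from -0.056 to 0.11 in the same way, that of *Psmb9* to *Psmb6* from -0.39 to -0.014 and that of *Psmb10* to *Psmb7* from -0.68 to 0.35. With counts per effective length summed over each group, the last was 0.031. No adjusted p of the inducible set fell below 0.05 in any fit.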

Other observations

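*Psmc3ip*, which shares the symbol stem of the ATPases but is not a proteasome subunit, had 7.40 and 17.1 TPM in the EV RV libraries and 12.2 and 19.3 TPM in the Tox RV libraries. The log2 difference of 0.42 was smaller than its standard error of 0.46, and EV RV replicate 1 was again the lowest library.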
